A study of Mus musculus with 6 samples.

Results

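The genes of potassium channel subunits were followed in the ageing mouse cortex. A gene was taken as a member when its symbol was Kcn followed by letters and then digits, and 92 of the 55421 genes in the deposited tables met this rule. It takes in the pore-forming subunits of the voltage-gated, inwardly rectifying, tandem-pore and calcium- or sodium-activated channels, the silent subunits, and the auxiliary subunits that bear a Kcn symbol, in 20 subfamilies by the letters of the symbol. The study sequenced RNA of the cerebral cortex of wild-type male C57BL/6J mice, with 3 animals aged 6 months (numbered 10, 11 and 17) and 3 aged 24 months (numbered 2, 4 and 5). No mouse carried an engineered allele or had been treated, apart from isoflurane anesthesia before cervical dislocation at both ages. Cortex was ground to powder, and libraries were made from 10 ng of total RNA with a low-input kit, so each value is an average over the cells of the whole sample.

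Potassium channels let K+ leave or enter the cell and thereby set the resting potential, end the action potential and tune how often a neuron fires. Most voltage-gated channels are tetramers of pore subunits of one subfamily. The silent subunits form no channel alone and assemble with Kcnb subunits, whose gating they change. Cytoplasmic and transmembrane auxiliary subunits alter trafficking and inactivation. In cortex, neurons hold most of these genes, while Kcnj10 and Kcnj16 are known from astrocytes and oligodendrocytes, Kcnj8 from pericytes and Kcnj13 from the choroid plexus.

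The libraries held 29495379 to 36494240 counts. The members took 0.414, 0.425 and 0.428% of the counts in mice 10, 11 and 17, and 0.397, 0.421 and 0.456% in mice 2, 4 and 5, so the ranges of the ages overlapped. Of the 92 members, 90 to 92 had at least 1 count in each library, and all 92 passed the minimum of 10 counts over the 6 libraries that was asked of a gene before testing. By mean counts scaled to a common library total (CPM), 71 members reached 1 CPM and 21 lay under it. Levels are compared between genes as TPM, which take account of gene length, and between mice as normalised CPM, for which the totals were first multiplied by edgeR's TMM factors. Log2 fold changes are for 24 against 6 months, and FDR is the p-value of edgeR's quasi-likelihood test adjusted over the 32905 genes tested. The neuron markers Rbfox3, Snap25, Syt1, Stmn2 and Map2 were present in every library, with summed TPM of 3861 to 4504 at 6 months and 3084 to 4016 at 24 months.

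Kcnab2, the cytoplasmic beta subunit of Kcna channels, had the highest level of the members. Its mean over the 6 mice was 310.3 TPM, rank 479 of all genes in the tables. Kcnk1 (212.8 TPM), a tandem-pore leak channel of weak activity, came next. The following members lay close together: Kcnip3 at 123.3 TPM, Kcnf1 at 122.1 TPM, Kcna1 at 109.3 TPM, Kcnj9 at 96.3 TPM, Kcnip4 at 94.5 TPM and Kcnv1 at 91.0 TPM. Each neighbour in this order overlapped the next over the 6 mice, and Kcna1 alone ranged from 56.8 to 150.2 TPM at 24 months. Kcnf1 and Kcnv1, which encode silent subunits, thus ranked among the 8 members of highest level. Kcng1, another silent subunit, lay in the middle of the family, with a mean of 15.7 TPM and rank 42 among the members. Summed over all members, TPM were 2791, 2869 and 2830 in mice 10, 11 and 17 and 2403, 2666 and 2908 in mice 2, 4 and 5.

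**Figure D1:**
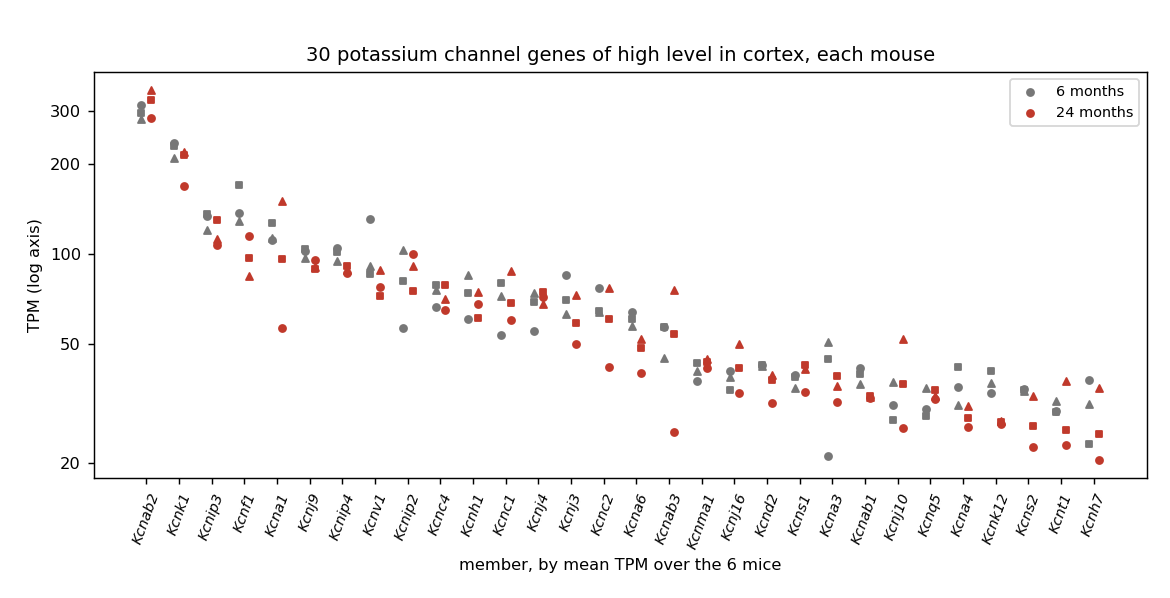
TPM (log axis) of 30 members of high mean level, with 1 point per mouse, grey at 6 months and red at 24 months (circles are mice 10 and 2, squares mice 11 and 4, triangles mice 17 and 5). Kcnab2 stood above all others at both ages, and for most members the points of the ages overlapped.

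With age, 13 members were lower and 2 higher at an FDR of 10%. The lower members were Kcng1, Kcnk12, Kcnf1, Kcna6, Kcnab1, Kcna4, Kcnk10, Kcnip4, Kcns2, Kcnd2, Kcnv1, Kcna5 and Kcnj9, all of at least 1 CPM. The higher ones were Kcnv2 and Kcnn4, both under 1 CPM. Of all genes tested, 8.33% were lower and 10.0% higher at this threshold, and of the genes of at least 1 CPM, 17.3% were lower and 2.47% higher. Among the 71 members of at least 1 CPM, 18.3% were lower, a share near that of other expressed genes. The median log2 fold change of these members was -0.16, beside -0.14 over all 15793 genes of at least 1 CPM. The potassium channel genes as a family therefore did not stand out from other expressed genes in their count or in their median.

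At 1% FDR, 0 members and 0 of all genes passed in the quasi-likelihood test of edgeR, although 19 members were lower and 5 higher at an unadjusted p under 0.05 (13.1% and 17.6% of all genes tested, 26.9% and 4.31% of those of at least 1 CPM). The likelihood ratio test of edgeR put Kcnf1, Kcng1 and Kcnk12 (lower) and Kcnv2 (higher) past 1% FDR, where it put 0.766% of all genes lower and 4.41% higher, and DESeq2 put Kcng1 and Kcnk12 past it. The count of calls also rested on the scaling and on single mice. Scaled by the library totals alone, 3 members were lower (Kcnf1, Kcng1 and Kcnk12) and 3 higher (Kcnh3, Kcnn4 and Kcnv2), where 0.966% of all genes were lower and 12.5% higher. The likelihood ratio test gave 11 lower and 5 higher members at 10% FDR (6.67% and 16.1% of all genes), DESeq2 9 and 1 (6.29% and 4.93%), and the filter filterByExpr of edgeR 4 and 2 (2.10% and 5.41%). Without mouse 10, mouse 11 or mouse 4, 0 members passed 10% FDR in the quasi-likelihood test, with 16, 9 and 14 lower and 4, 5 and 3 higher at an unadjusted p under 0.05. The calls among all genes were then 0, 1 and 0. Without mouse 17, 8 members were lower and 2 higher (3.90% and 3.81% of all genes), and without mouse 2, 2 were lower (Kcnf1 and Kcng1) and 0 higher (0.346% and 0.240% of all genes), with 14 and 4 members at an unadjusted p under 0.05. Without mouse 5, 21 members were lower and 4 higher, and the shares of all genes also grew, to 11.6% lower and 14.0% higher. All 15 members called kept their direction in each fit in which they were tested and whichever mouse was left out.

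**Figure D2:**
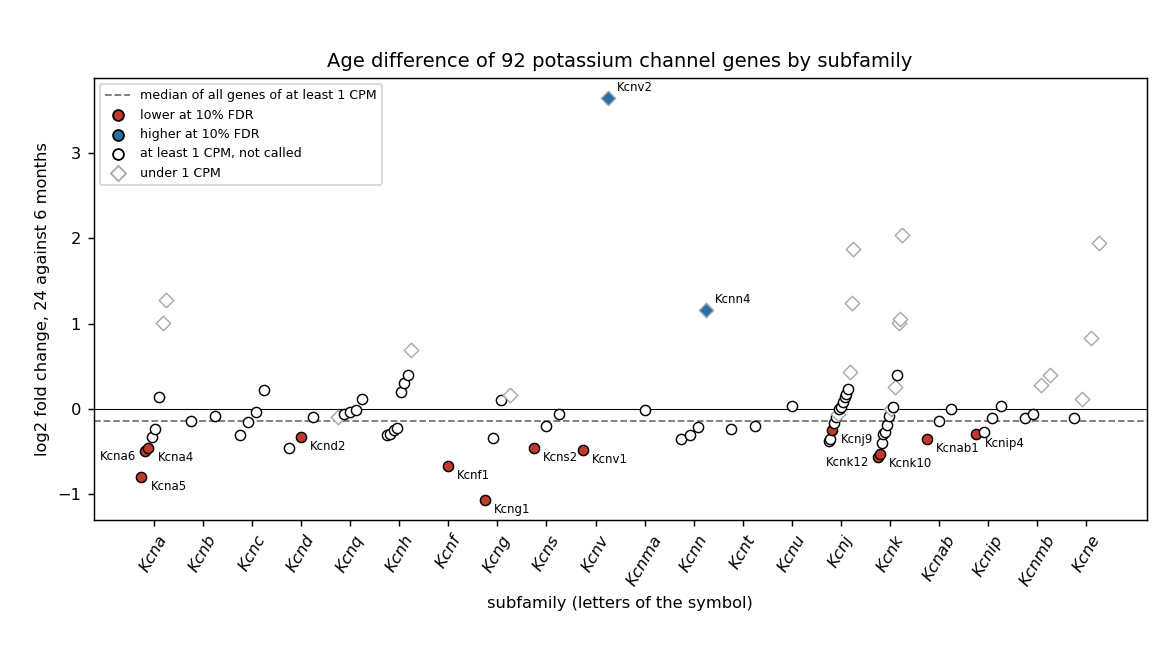
Log2 fold change (24 against 6 months, edgeR) of each of the 92 members, by subfamily. Filled circles are lower and filled diamonds higher at 10% FDR, open circles are other members of at least 1 CPM, open diamonds are other members under 1 CPM, and the dashed line is the median of all genes of at least 1 CPM (-0.14). Kcng1 was the lowest point (-1.07), and the members under 1 CPM lay mostly above 0.

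By whether the ages overlapped in normalised CPM, 17 members were lower in every 24-month mouse than in any 6-month mouse and 6 were higher. Among the members of at least 1 CPM, 23.9% were lower in this way, against 32.5% of all genes of that level, and 1.41% were higher, against 5.41% (16.3% of all genes tested lower, 20.0% higher). On CPM by the library totals the counts were 8 lower (Kcna6, Kcnab1, Kcnd2, Kcnf1, Kcng1, Kcnk10, Kcnk12 and Kcns2) and 16 higher, where 4.75% of all genes tested were lower and 30.9% higher. At 1 CPM or more, 11.3% of members were lower and 12.7% higher in this way, beside 9.35% and 15.3% of all genes of that level. In RNA of whole cortex, fewer cells that express a gene and less RNA per cell cannot be told apart. Of the 5 neuron markers, 4 did not overlap between the ages and were lower at 24 months, and Stmn2 (log2 fold change -0.45) and Syt1 (-0.40) were lower at 10% FDR. By library totals 1 of the 5, Stmn2, was lower without overlap. The part of the neuron share in the lower members was not tested.

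The silent subunits held the member of largest fall, Kcng1. Of the 10 silent subunit genes (Kcnf, Kcng, Kcns and Kcnv), 4 were lower at 10% FDR (Kcng1, Kcnf1, Kcns2 and Kcnv1) and 1 was higher (Kcnv2). Of all genes tested, 8.33% were lower and 10.0% higher, and of those of at least 1 CPM 17.3% and 2.47%. With TMM factors from genes of at least 1 CPM, Kcns2 and Kcnv1 were no longer called. The 8 of at least 1 CPM had a median log2 fold change of -0.40, against -0.14 for all genes of that level. With this few genes the difference is a description. Kcng1 and Kcnv2 were also in the lists that the study drew up from these same libraries, so their calls are not independent of that choice.

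Kcng1 (ENSMUSG00000074575.4, chromosome 2, 168260117 to 168281736 on the minus strand of GRCm38) encodes a silent subunit that assembles with Kcnb subunits. Its counts were 726, 1028 and 854 in mice 10, 11 and 17, against 513, 423 and 335 in mice 2, 4 and 5. In normalised CPM these were 23.5, 29.8 and 26.1 at 6 months and 15.8, 12.2 and 9.84 at 24 months. All 24-month mice lay under all 6-month mice. The mean fell from 26.5 ± 3.13 to 12.6 ± 2.999 normalised CPM (SD, n = 3 each), to 47.7% of the 6-month level. The log2 fold change was -1.07 (SE 0.17, FDR 0.0518), or -0.93 relative to the median of all genes of at least 1 CPM. Scaled by library totals it was -0.87 (FDR 0.0532), and with each mouse left out in turn it ranged from -1.25 to -0.91. Among the 24-month mice Kcng1 was highest in mouse 2 and lowest in mouse 5, as were Kcnf1 and Kcnk10 among others. Of the 71 members of at least 1 CPM, 45 were lowest in mouse 2 of these mice and 41 highest in mouse 5.

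Kcnf1, a silent subunit with a single-exon gene on chromosome 12 (17172100 to 17176888, minus strand), fell as well. It gave 187.6, 230.8 and 175.5 normalised CPM at 6 months and 144.2, 121.7 and 106.6 at 24 months. Here too the ages did not overlap, and mouse 5 was the lowest of the older mice. The log2 fold change was -0.67 (SE 0.14, FDR 0.0518), and -0.48 by library totals (FDR 0.0857).

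Kcns2 and Kcnv1 were also lower at 24 months. Kcns2 gave 56.6, 55.2 and 55.2 normalised CPM at 6 months, and 33.1, 39.0 and 49.3 at 24 months. The younger mice were nearly equal, whereas the older ones spread toward them (log2 fold change -0.46, SE 0.14, FDR 0.0712). Kcns2 was called in 5 of the 9 other fits with all mice, and by library totals its log2 fold change was -0.27 (FDR 0.18). Kcnv1 gave 171.4, 110.9 and 119.2 normalised CPM at 6 months and 93.6, 87.0 and 106.3 at 24 months. Its ages were separated by a narrow gap, and mouse 10 alone stood high (log2 fold change -0.48, SE 0.16, FDR 0.0856). Without mouse 10 its log2 fold change was -0.27, and it was called in 4 of the 9 other fits with all mice.

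The other silent subunits did not pass. Kcns1 was at 29.2 ± 1.57 and 28.1 ± 3.05 normalised CPM (6 and 24 months), Kcns3 at 11.9 ± 0.96 and 10.3 ± 1.39, and Kcng2 at 2.26 ± 0.18 and 2.42 ± 0.47. Kcng4 had a log2 fold change of -0.34 (SE 0.36), and Kcng3 had 26 counts over the younger and 30 over the older mice. Kcnb2, a partner with which silent subunits form channels, did not pass either (log2 fold change -0.14, SE 0.10). The log2 fold change of Kcng1 thus lay further from 0 than that of this partner, a difference between genes that was not tested.

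**Figure D3:**
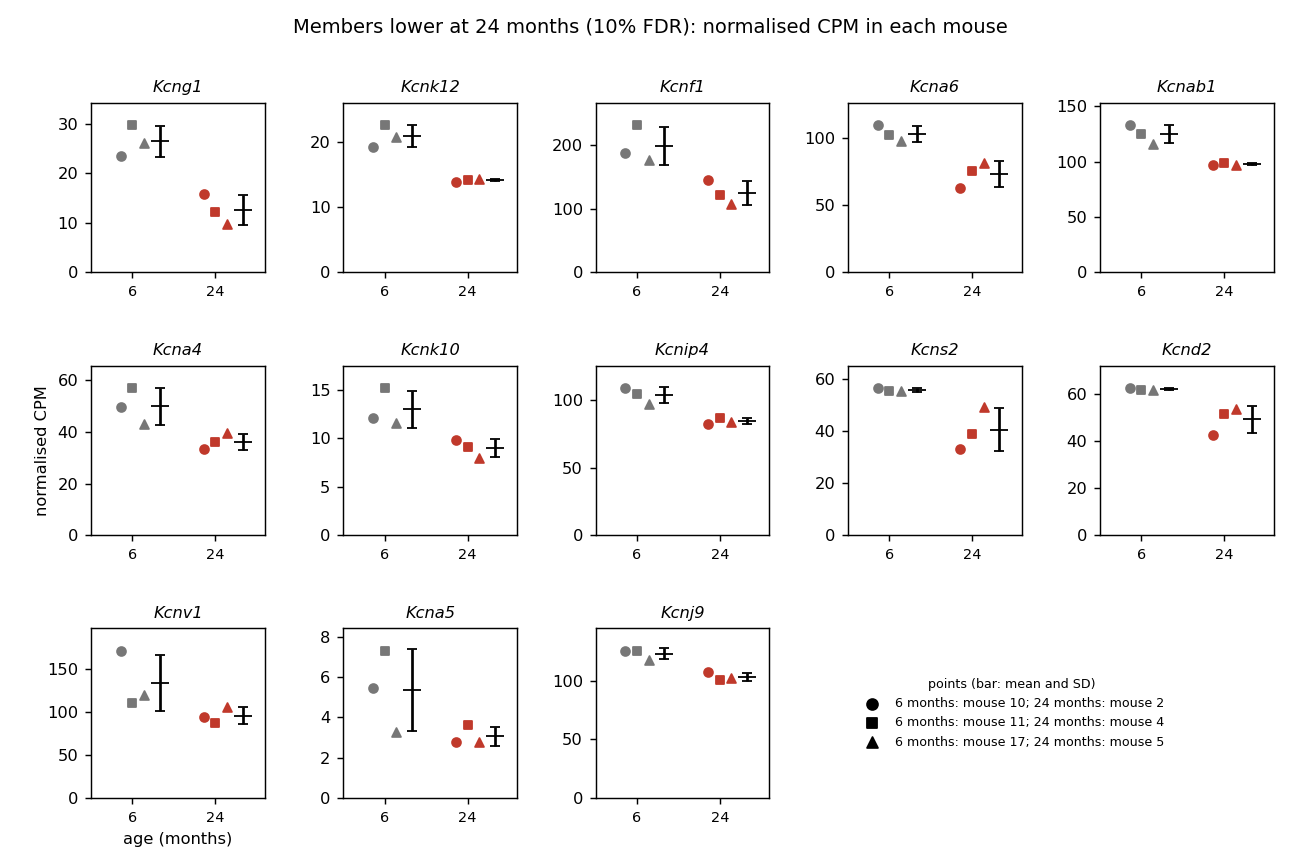
Normalised CPM (linear axis from 0) of the 13 members lower at 10% FDR, with 1 point per mouse, grey at 6 months and red at 24 months, and the mean and SD of each age beside the points. The ages were separate in every panel but that of Kcna5, in which mouse 17 (3.27) lay below mouse 4 (3.61).

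Of the 8 Kcna genes, which encode the Kv1 channels of axons and dendrites, Kcna6, Kcna4 and Kcna5 were lower at 10% FDR and 0 were higher. The shares were 8.33% and 10.0% of all genes tested, and 17.3% and 2.47% of those of at least 1 CPM. Kcna6 gave 109.3, 101.6 and 97.1 normalised CPM at 6 months and 62.5, 75.5 and 81.1 at 24 months. The ages did not overlap, and the log2 fold change was -0.49 (SE 0.11, FDR 0.0547). An antisense gene, Gm26673, overlaps 39.6% of the exonic bases of Kcna6 on the other strand, and the counting options that the study lists name no strand setting, so reads of the 2 genes cannot be told apart. Kcna4, which carries the fast-inactivating A-type Kv1 current, gave 49.7, 57.2 and 43.1 normalised CPM at 6 months and 33.4, 36.03 and 39.5 at 24 months (log2 fold change -0.46, SE 0.12, FDR 0.0620). It too was lower in every older mouse. Of the 9 other fits with all mice 5 called Kcna4, and by library totals its log2 fold change was -0.27 (FDR 0.17). Kcna5 was expressed at a much lower level, 5.45, 7.33 and 3.27 normalised CPM at 6 months and 2.80, 3.61 and 2.79 at 24 months, and its ages overlapped despite the call (log2 fold change -0.80, SE 0.27, FDR 0.0898). Without mouse 11 the log2 fold change of Kcna5 was -0.47, and 5 of the 9 other fits called it.

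The axonal subunits Kcna1 and Kcna2 were not called. Kcna1 gave 152.9, 171.8 and 153.8 normalised CPM at 6 months and 71.2, 120.8 and 188.7 at 24 months, so that the older mice lay on both sides of the younger ones. Kcna2 had a log2 fold change of 0.14 (SE 0.15) and Kcna3 of -0.23 (SE 0.26). Among the beta subunits that bind Kv1 channels in the cytoplasm, Kcnab1 fell. It gave 133.0, 125.1 and 116.3 normalised CPM at 6 months and 97.0, 98.7 and 97.3 at 24 months, with the older mice nearly equal and all under the younger (log2 fold change -0.35, SE 0.09, FDR 0.0567). Kcnab2 had nearly the same mean at both ages, 591.7 ± 33.5 and 590.4 ± 62.7 normalised CPM, and Kcnab3 had 43.1 ± 5.69 and 38.9 ± 19.0.

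In the A-type channel complex of dendrites, the pore subunit Kcnd2 and the calcium-binding subunit Kcnip4 were lower with age. Kcnd2 (Kv4.2) gave 62.7, 61.9 and 61.8 normalised CPM at 6 months and 42.8, 51.4 and 53.5 at 24 months (log2 fold change -0.34, SE 0.11, FDR 0.0788). The 6-month mice were nearly equal and all above the older ones. Kcnip4, a KChIP, which binds Kv4 channels, gave 109.0, 104.2 and 97.4 and then 82.4, 86.6 and 84.1 normalised CPM. Its log2 fold change was -0.29 (SE 0.09, FDR 0.0712). Both calls were weak. Of the 9 other fits with all mice, Kcnip4 was called in 1 and Kcnd2 in 2, and by library totals their log2 fold changes were -0.10 (FDR 0.45) and -0.15 (FDR 0.34). Kcnd1 (log2 fold change -0.46, SE 0.17, FDR 0.12) and Kcnip3 (-0.27, SE 0.10, FDR 0.12) did not overlap between the ages but did not pass the test. Kcnd3 (-0.10), Kcnip1 (-0.11) and Kcnip2 (0.03) were nearer to 0.

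No gene of the Kcnc or Kcnq channels was called. Among the Kcnc (Kv3) genes, which allow fast-spiking interneurons to fire at high rates, the log2 fold changes were -0.04 for Kcnc1 (SE 0.17), -0.31 for Kcnc2 (SE 0.19) and -0.16 for Kcnc4 (SE 0.11). Kcnq3, which helps carry the M-current that restrains repetitive firing, stood at 62.9 ± 2.28 and 60.2 ± 7.15 normalised CPM (6 and 24 months), and Kcnq5, a channel of the same current, at 68.99 ± 7.75 and 68.2 ± 2.37. Of the 8 Kcnh genes (EAG, ERG and ELK channels) 0 were called. Kcnh3, an ELK channel of forebrain neurons, gave 36.1, 32.4 and 34.9 normalised CPM at 6 months and 42.8, 38.7 and 37.5 at 24 months. Every older mouse was higher (log2 fold change 0.20, SE 0.10, FDR 0.20). It passed 10% FDR with library totals and with TMM factors taken from genes of at least 1 CPM.

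Among the 14 Kcnk genes, which encode the tandem-pore leak channels that set the resting potential, Kcnk12 and Kcnk10 were lower at 10% FDR. Of all genes tested 8.33% were lower, and of those of at least 1 CPM 17.3%. Kcnk12 (THIK-2, chromosome 17, 87745801 to 87797994, minus strand) gave 19.3, 22.6 and 20.8 normalised CPM at 6 months and 13.95, 14.2 and 14.3 at 24 months. The older mice differed from each other by less than any pair of younger ones and lay below all of them. The mean moved from 20.9 ± 1.67 to 14.2 ± 0.19 (SD, n = 3), with a log2 fold change of -0.56 (SE 0.11, FDR 0.0518). Kcnk10 (TREK-2, opened by stretch and lipids) gave 12.1, 15.2 and 11.6 and then 9.80, 9.10 and 7.99 normalised CPM (log2 fold change -0.53, SE 0.15, FDR 0.0633). Its ages did not overlap either. Kcnk10 was called in 5 of the 9 other fits with all mice, and by library totals its log2 fold change was -0.34 (FDR 0.19).

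The related TREK-1 gene Kcnk2 had a log2 fold change of -0.41 (SE 0.20, FDR 0.20) and a wide spread at 24 months, and TRAAK (Kcnk4) had -0.30 (SE 0.11, FDR 0.11). Kcnk1 gave 142.9 ± 9.31 and 117.8 ± 16.4 normalised CPM (-0.28, SE 0.12, FDR 0.14). The acid-sensitive channels Kcnk3 (0.02, SE 0.12) and Kcnk9 (-0.08, SE 0.18) were near 0. Kcnk13, the THIK-1 channel known from microglia, gave 7.26 ± 0.73 and 6.35 ± 1.73 normalised CPM, and Kcnk6 1.38 ± 0.10 and 1.82 ± 0.64. The 5 microglia markers summed to 297.0 to 315.4 TPM at 6 months and 311.9 to 331.5 TPM at 24 months.

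Of the 15 Kcnj genes, the inward rectifiers, Kcnj9 was lower. This gene encodes a subunit of the G-protein-gated (GIRK) channels that inhibitory receptors open. It gave 125.3, 125.6 and 117.7 normalised CPM at 6 months and 107.1, 100.8 and 102.3 at 24 months (log2 fold change -0.25, SE 0.08, FDR 0.0920). The ages did not overlap, but the call was made in 0 of the 9 other fits with all mice. At 10% FDR 8.33% of all genes tested were lower, and 17.3% of those of at least 1 CPM. The other GIRK subunits of cortex were fitted lower without passing, Kcnj3 at -0.38 (SE 0.15, FDR 0.13) and Kcnj6 at -0.36 (SE 0.19, FDR 0.22). The lincRNA Gm26794 covers 31.1% of the exonic bases of Kcnj3 on the other strand.

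The inward rectifiers of glia and vessels did not pass. Kcnj10, the Kir4.1 channel, takes up K+ into astrocytes and oligodendrocytes. It gave 48.3, 42.5 and 57.4 normalised CPM at 6 months and 37.1, 52.3 and 73.9 at 24 months. Its partner Kcnj16 gave means of 42.7 ± 3.43 and 43.3 ± 8.12. Kcnj8, the Kir6.1 subunit of pericytes, gave 4.57 ± 0.49 and 4.27 ± 1.22. Kcnj11, the Kir6.2 subunit of neuronal ATP-sensitive channels, gave 14.2 ± 0.72 and 14.99 ± 0.81. Kcnj13 gave 1.85, 2.46 and 3.82 and then 1.57, 3.58 and 2.09 normalised CPM, while the choroid plexus markers, in which it is known, summed to 113.7, 35.1 and 55.3 TPM and then 113.3, 112.3 and 48.3 TPM. The levels of Kcnj13 did not follow these sums from mouse to mouse, and 49.1% of its exonic bases are overlapped by Gigyf2 on the other strand.

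Among the 8 genes of calcium- or sodium-activated channels, 0 of the 7 of at least 1 CPM were called. Kcnma1, the BK channel that repolarises the action potential, stood at 194.9 ± 12.1 and 192.8 ± 7.12 normalised CPM (log2 fold change -0.01, SE 0.09). The SK channels, which carry an afterhyperpolarisation after calcium entry, were fitted lower without passing: Kcnn1 at -0.21, Kcnn2 at -0.35 (SE 0.13, FDR 0.10) and Kcnn3 at -0.30. Kcnn2 lay just outside the threshold and Kcnj9 just inside it. The sodium-activated channels Kcnt1 (-0.20, SE 0.16) and Kcnt2 (-0.23, SE 0.18) did not pass, nor did Kcnu1 (0.03), a channel of sperm that stood at 3.36 ± 0.34 and 3.43 ± 0.45 normalised CPM. The BK auxiliary subunits Kcnmb4 (-0.11) and Kcnmb2 (-0.06) and Kcne4 (-0.10), which modulates Kv channels, were not called.

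Genes outside the symbol rule that encode partners of these channels were also read, from a list of 19. Of these 4 were lower at 10% FDR and 0 higher, with a median log2 fold change of -0.24 (range -0.50 to 0.91). Of all genes tested, 8.33% were lower and 10.0% higher. Of those of at least 1 CPM, 17.3% were lower and 2.47% higher, with a median of -0.14. The lower ones were Dpp6 (-0.40, SE 0.12, FDR 0.0665), a transmembrane partner of Kv4 channels, Cntnap2 (-0.50, SE 0.12, FDR 0.0562) and Lgi1 (-0.38, SE 0.11, FDR 0.0665), which act with axonal Kv1 channels, and Abcc8 (-0.50, SE 0.15, FDR 0.0737), the sulfonylurea receptor of Kcnj11. Dpp10, the other such partner, gave 251.1 ± 26.7 and 212.4 ± 2.51 normalised CPM and did not pass (-0.24, SE 0.10, FDR 0.13). Genes of HCN channels, which carry a cation current that opens on hyperpolarisation, gave 0.28 (Hcn2, SE 0.13), -0.31 (Hcn4, SE 0.23) and -0.07 (Hcn3, SE 0.15).

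The sequence before the start of each gene was read where the RefSeq table used here (GRCm38.p6) holds it, from 250 bases before to 50 after the start. The table held promoters of 67 of the 92 members, 92 promoters in all, and of 10 of the 13 lower members. The 4 lower members of smallest p with a single start in that table are shown, since these genes fell together. Capitals mark letters of a GC box (GGGCGG) or a CRE core (TGACGT) on either strand.
Kcnk12 (chr17:87797945-87798244, minus strand): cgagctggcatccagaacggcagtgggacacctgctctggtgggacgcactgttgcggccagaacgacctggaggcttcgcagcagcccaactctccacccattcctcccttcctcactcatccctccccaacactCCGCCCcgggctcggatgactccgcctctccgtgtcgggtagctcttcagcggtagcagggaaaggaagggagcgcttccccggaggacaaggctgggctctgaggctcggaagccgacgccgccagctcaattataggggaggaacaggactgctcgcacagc
Kcnf1 (chr12:17176839-17177138, minus strand): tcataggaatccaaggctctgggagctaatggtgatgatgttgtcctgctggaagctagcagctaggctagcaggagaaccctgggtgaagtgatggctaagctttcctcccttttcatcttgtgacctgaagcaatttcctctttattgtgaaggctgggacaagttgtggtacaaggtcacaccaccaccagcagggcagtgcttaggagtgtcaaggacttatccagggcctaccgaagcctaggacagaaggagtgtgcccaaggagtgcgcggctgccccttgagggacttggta
Kcna6 (chr6:126740625-126740924, minus strand): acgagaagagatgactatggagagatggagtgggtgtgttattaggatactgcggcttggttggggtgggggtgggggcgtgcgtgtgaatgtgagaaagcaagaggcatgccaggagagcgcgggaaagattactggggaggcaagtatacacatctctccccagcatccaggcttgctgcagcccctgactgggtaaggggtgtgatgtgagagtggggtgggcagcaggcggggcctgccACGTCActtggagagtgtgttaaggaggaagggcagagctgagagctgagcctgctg
Kcna4 (chr2:107290339-107290638, plus strand): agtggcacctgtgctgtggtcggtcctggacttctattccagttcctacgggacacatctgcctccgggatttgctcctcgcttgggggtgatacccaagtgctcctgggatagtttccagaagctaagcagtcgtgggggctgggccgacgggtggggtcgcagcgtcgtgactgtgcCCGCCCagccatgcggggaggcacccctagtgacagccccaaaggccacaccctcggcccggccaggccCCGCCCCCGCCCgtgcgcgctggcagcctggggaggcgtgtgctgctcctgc

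Counting each match, Kcnk12 held 1 GC box, Kcna6 held 1 CRE core, Kcna4 held 3 GC boxes and 1 Egr site (GCGNGGGCG, overlapping GC boxes), and Kcnf1 held none of these nor a TATA box (TATAAA). The GC content was 64.3% in Kcnk12, 53.0% in Kcnf1, 58.3% in Kcna6 and 67.7% in Kcna4. Over the 14 promoters of lower members, 5 held a GC box, 1 a CRE core, 1 an Egr site and 2 a TATA box. Of all 32851 promoters in the table, 35.7% held a GC box, 7.51% a CRE core, 5.55% an Egr site and 13.6% a TATA box. Over the 92 promoters of members these shares were 47.8%, 5.43%, 4.35% and 5.43%. The lower members thus shared none of these letters as a group, and a match or its lack says nothing of binding.

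At the low end of the family, 19 of the 21 members under 1 CPM were fitted higher at 24 months, and 2 of them passed the test. Of all 17112 genes tested under 1 CPM, 84.6% were fitted higher and 17.0% were called higher, so neither count set the members apart. Kcnv2, a silent subunit of photoreceptors (chromosome 19, 27322588 to 27337179, plus strand), received 0, 0 and 3 counts in the younger mice, compared with 16, 13 and 14 in the older. Every older mouse was above every younger one, yet no library held more than 16 counts. With 3 counts at 6 months it reached the minimum of 10 only with the counts of the older mice, as did Kcne1, Kcnj1 and Kcnk16, so a higher level at 24 months was a condition of its being tested. Pooled over mice and divided by the library totals, the ratio of 24 to 6 months was 15.9 with an exact 95% interval of 5.08 to 80.0, which covers counting error only (FDR 0.0518). Kcnn4, the intermediate-conductance channel of blood cells and microglia, had 6, 10 and 13 counts and then 20, 29 and 18 (pooled ratio 2.56, interval 1.63 to 4.10, FDR 0.0771).

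Other low members were also fitted higher without passing. Kcnk16 had 2, 2 and 0 counts and then 10, 8 and 0, and Kcnj1, the ROMK channel of the kidney, 1, 2 and 1 and then 9, 3 and 4. Kcna10 had 5, 7 and 3 counts and then 8, 20 and 10. The auxiliary subunits Kcne1 and Kcne2 had 2 and 21 counts over the 6-month mice and 9 and 39 over the 24-month mice. Kcnj14 and Kcnq1 were the 2 low members fitted lower (-0.06 and -0.10).

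Genes known from other tissues differed in the same direction. Between 40208 and 43561 genes had a count in the older libraries, and between 33974 and 35651 in the younger. Over 1511 sensory receptor genes, the mean CPM divided by exonic kb was 0.0224 ± 0.0016 in the younger mice and 0.0756 ± 0.0196 in the older (SD, n = 3 each), a difference of 0.0532. For the 21 low members it was 0.0838 ± 0.0120 and 0.139 ± 0.0244, a difference of 0.0550. Taken one by one, 11 of the 21 had a difference no larger than that of the sensory receptor genes, and 10 a larger one, among them Kcnv2 and Kcnn4 (0.0838 and 0.0845). The part of this general difference in the low members was not tested.

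**Figure D4:**
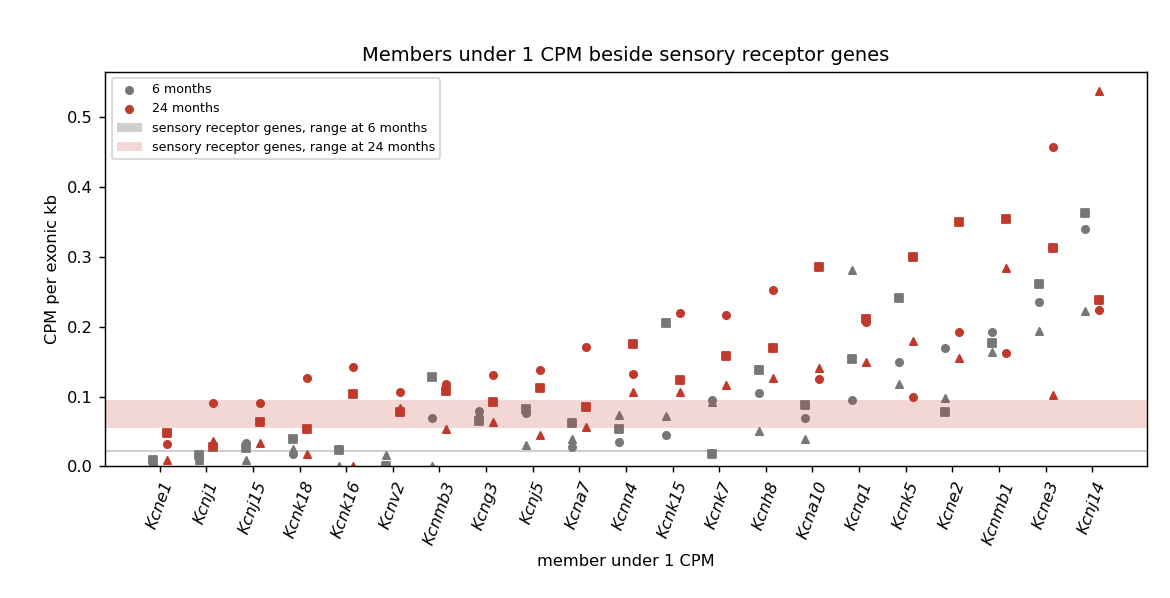
CPM by the library total per exonic kb of the 21 members under 1 CPM, with 1 point per mouse (grey 6 months, red 24 months). Members are in order of their mean level at 24 months. The bands are the ranges of 1511 sensory receptor genes over mice of each age. At 24 months the means of 14 low members lay above the red band, 5 within it and 2 below it, and 4 members had a 6-month level below that of the sensory receptor genes.

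Members differed among the 24-month mice in a shared order. Of the 71 members of at least 1 CPM, 45 were lowest in mouse 2 of the 3 older mice and 41 were highest in mouse 5. At 6 months no mouse stood apart in this way, with 22 to 26 members lowest and 21 to 27 highest in each. The same was not counted over all genes of at least 1 CPM. Whether the members differ from other expressed genes in this order therefore cannot be seen. The median ratio of the highest to the lowest mouse was 1.23 at 6 months and 1.29 at 24 months. This ratio differed between the ages by no more than 1.5 times for 59 members. By over 1.5 times it was larger at 24 months for 7, and larger at 6 months for 5. Among these 5 were Kcnj12 (3.91 at 6 and 1.64 at 24 months), Kcnh4 (2.54 and 1.16) and Kcna3 (2.39 and 1.23). Of the 6-month mice, each of these genes was lowest in mouse 10.

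A few members, chosen here after their values were seen, spread more at 24 than at 6 months. Kcng4, a silent subunit, stood at 32.2, 78.0 and 125.6% of the 6-month mean in mice 2, 4 and 5. Kcnab3 stood at 44.3, 94.2 and 132.0%, and Kcna1 at 44.6, 75.7 and 118.3%. Kcnj10, whose ratio of highest to lowest mouse was 1.35 at 6 months and 1.99 at 24 months, stood at 75.2, 105.9 and 149.6%. Each of these was lowest in mouse 2 and highest in mouse 5 of the older mice, and none was called. Kcnk2 and Kcnc2 had the same order, at 49.3, 83.6 and 93.5% and at 56.4, 81.6 and 104.2%.

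Some cell type markers had this order among the older mice and others did not. Of 51 markers read, 28 were lowest in mouse 2 and highest in mouse 5, with mouse 4 between. They were all 5 of oligodendrocytes, 4 of 5 of neurons and 4 of 5 of parvalbumin interneurons. From vessels they were 4 of 5 of pericytes and smooth muscle and 3 of 4 of endothelial cells. The others were 2 of 3 of oligodendrocyte precursors, 2 of 5 of astrocytes, 2 of 5 of microglia and 2 of 6 of striatum. Of somatostatin interneurons and of the choroid plexus, 0 had this order. Pvalb, a marker of fast-spiking interneurons, stood at 48.9, 102.6 and 148.6% of its 6-month mean, and Syt2, found in the same cells, at 23.8, 99.4 and 181.3%. The 5 genes read as parvalbumin interneuron markers summed to 432.7 to 480.7 TPM at 6 months and to 283.6, 447.4 and 574.5 TPM in mice 2, 4 and 5. They were Pvalb, Syt2, Kit, Gad1 and Gad2, of which Gad1 and Gad2 are not particular to these cells. Gad1 gave 180.8 to 213.5 TPM of the sums at 6 months. The 5 oligodendrocyte markers summed to 1185 to 1880 TPM and to 675, 1662 and 2210 TPM. The 5 astrocyte markers summed to 777.3 to 833.1 TPM at 6 months and to 882.0, 910.4 and 844.2 TPM at 24 months. This sum had another order, but Gfap alone gave 262.3, 277.0 and 148.1 TPM of it in mice 2, 4 and 5. Gfap was called higher (log2 fold change 0.69, FDR 0.0738). Aqp4, Aldh1l1, Slc1a3 and Gja1 were fitted lower without passing, and Aqp4 and Gja1 had the shared order. The share of all genes in this order was not counted. Measures of the whole library ran in the reverse order over mice 2, 4 and 5. These mice had 43561, 42717 and 40208 genes with a count, and TMM factors of 1.10, 1.07 and 1.04. Their sensory receptor genes stood at 0.0945, 0.0771 and 0.0553 CPM per exonic kb. The part of these cell types or of these library measures in the spread of the channel genes was not tested.

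**Figure D5:**
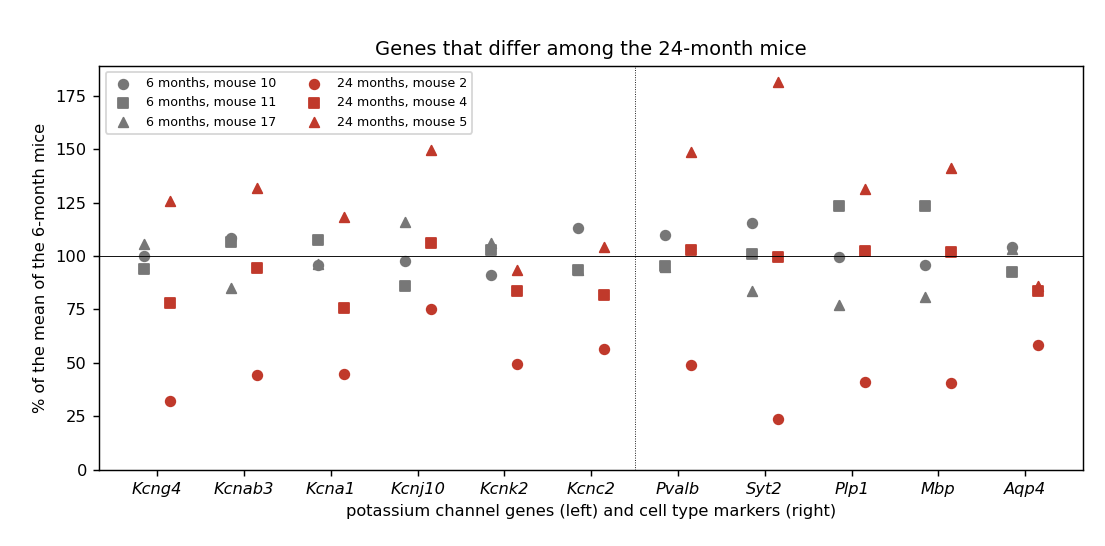
Normalised CPM as % of the 6-month mean (line at 100) for 6 members that spread at 24 months (left of the dotted line) and for 5 cell type markers (right), picked among those in this order, with 1 point per mouse, grey at 6 and red at 24 months. Mouse 2 (red circles) was the lowest of the older mice in every column shown and mouse 5 (red triangles) the highest.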

How the data were processed

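Cortex RNA of 6 mice was sequenced as 75-base single reads. Per the study's methods and processing notes, the authors trimmed reads (Trim Galore 0.6.4), mapped them with STAR 2.7.3a to GRCm38, and counted them on exons with featureCounts of Subread 2.0.0. For every mouse a table of counts and a table of TPM was deposited. The options listed for counting split reads that map to several places into fractions and name no strand setting, whereas the deposited counts were all whole numbers. They were used as counts, and the deposited TPM values follow from them and the exonic length. Counts (29495379 to 36494240 per library) were scaled with TMM factors (0.921 to 0.946 at 6 months, 1.04 to 1.10 at 24 months) and tested with the quasi-likelihood test of edgeR 4.0.16 (R 4.3.3), without covariates, on the 32905 genes of at least 10 counts over the libraries. The p-values of these genes were adjusted together by the Benjamini-Hochberg method (FDR). The call threshold of 10% was taken knowing that 0 genes pass 1%. The test was tried on simulated counts.

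The members, lists and tests were chosen with earlier results of these data known. Named were Kcng1 and Kcnv2 (from the study's lists), up to 8 lower and up to 8 higher members of smallest p, the member of highest TPM of each subfamily, and 16 members of known cell type or role. Some of these are not reported here. Other members named were chosen after their values were seen. Replicates are separate mice, and pairs of them differed by more than sampling noise (chi-square per gene 18.7 to 45.4). Alternatives were other tests (DESeq2 1.42.0 among them), scalings and filters, and each mouse left out. Positions are from GENCODE vM21, which held all 92 members, whereas the authors counted on GENCODE vM23 of the same build. Fold ratios of low members use exact binomial limits of pooled counts.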

Additional observations from a re-analysis of the deposited data

How the results depend on the processing

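No paired analysis was possible because the mice of the 2 ages share no numbers. Against 13 members lower and 2 higher, the count of lower members was 3 with library totals, 4 with TMM factors from genes of at least 1 CPM, 4 with filterByExpr (80 members tested) and 0 with only genes of a mean of at least 1 CPM (71 tested, smallest FDR 0.142, 8 lower and 3 higher at an unadjusted p under 0.05). The count of higher members was 5 with the likelihood ratio test, 1 with DESeq2 and 0 with only genes of a mean of at least 1 CPM. With each mouse left out, 0 to 21 members were lower and 0 to 4 higher. Kcng1, Kcnf1 and Kcnk12 were called in 8 of the 9 other fits with all mice and Kcnj9 in 0. In these other fits, 12 (DESeq2 size factors), 11 (likelihood ratio test), 10 (exact test and a minimum of 1 count) and 9 (DESeq2) members were lower.

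On CPM by library totals, an alternative chosen after seeing the data, 8 members were lower and 16 higher without overlap, against 17 and 6. The median log2 fold change of the members, -0.09, became 0.10 with library totals, 0.066 with TMM factors from genes of at least 1 CPM and 0.00552 with filterByExpr, while library totals moved the median of all genes tested by 0.19. With each mouse left out it ranged from -0.12 to -0.03. So the direction of members near 0 rested on the scaling. With library totals the log2 fold change became 0.19 for Kcnab2, 0.048 for Kcnb2, 0.15 for Kcnc1, 0.034 for Kcnc4, 0.091 for Kcne4, 0.023 for Kcnj13, 0.086 for Kcnj8, 0.18 for Kcnma1, 0.085 for Kcnmb4, 0.13 for Kcnq3 and 0.14 for Kcns1. With TMM factors from genes of at least 1 CPM, and with only those genes tested, it became 0.15 for Kcnab2, 0.013 for Kcnb2, 0.11 for Kcnc1, 0.055 for Kcne4, 0.051 for Kcnj8, 0.14 for Kcnma1, 0.049 for Kcnmb4, 0.092 for Kcnq3 and 0.099 for Kcns1. With filterByExpr it became 0.11 for Kcnab2, 0.073 for Kcnc1, 0.012 for Kcne4, 0.011 for Kcnj8, 0.098 for Kcnma1, 0.00646 for Kcnmb4, 0.051 for Kcnq3 and 0.057 for Kcns1. A minimum of 1 count gave 0.034 for Kcnab2 and 0.023 for Kcnma1, and DESeq2 and its size factors in edgeR gave 0.0018 for Kcnab2. With each mouse left out, the sign turned for Kcna2 (-0.027 to 0.25), Kcnab2 (-0.0700 to 0.086), Kcnc1 (-0.20 to 0.13), Kcne4 (-0.29 to 0.19), Kcnj10 (-0.14 to 0.36), Kcnj13 (-0.56 to 0.16), Kcnj16 (-0.12 to 0.16), Kcnj8 (-0.35 to 0.036), Kcnk13 (-0.36 to 0.018), Kcnma1 (-0.0599 to 0.071), Kcnmb4 (-0.18 to 0.00797), Kcnq3 (-0.16 to 0.015), Kcns1 (-0.10 to 0.042) and Kcnu1 (-0.026 to 0.14). Beyond the built-in change of scaling, genes or mice, the cause of these differences was not tested. Low counts limit what can be said of the 21 members under 1 CPM, of which 4, Kcnv2 among them, never exceeded 3 counts at 6 months.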

Other observations

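Within each age, Kcnf1 and Kcnk10 ran in the same order over mice as the immediate early genes, a pattern chosen after its values were seen. The 6 immediate early genes, which neuronal activity and handling induce, summed to 2465, 3044 and 1460 TPM in mice 10, 11 and 17 and to 3377, 789 and 563 TPM in mice 2, 4 and 5. Kcnf1 was at 187.6, 230.8 and 175.5 and then 144.2, 121.7 and 106.6 normalised CPM, and Kcnk10 at 12.1, 15.2 and 11.6 and then 9.80, 9.10 and 7.99. Kcng1 had the same order at 24 months but not at 6 months, where mouse 10 was lowest. Kcnh8, Kcne3, Kcnj5 and Kcnmb3, all under 1 CPM and fitted higher at 24 months, also ran in the order of Kcnf1 at both ages. The share of all genes with this order was not counted, and a link to neuronal activity was not tested. In mouse 2 the immediate early genes were above every 6-month mouse in sum, whereas Kcnf1, Kcnk10 and Kcng1 were below every 6-month mouse there. Of the 6 immediate early genes, 0 were called in the quasi-likelihood test. Egr1 came closest, with a log2 fold change of -0.998 (SE 0.38, FDR 0.12).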
